A study of Mus musculus with 9 samples.

Results

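The solute carriers (SLC) are the large collection of membrane proteins that move sugars, amino acids, carboxylates, ions, metals, nucleosides and lipids across the plasma membrane and the membranes of organelles. Their genes were taken here by name: every gene whose symbol in the array's probe annotation begins with Slc and a digit, apart from the iron exporter gene Slc40a1. The rule found 138 SLC genes, printed as 177 cDNA clones, among 8146 genes with a single symbol on the array. Values that could be tested were present for 136 of the 138 SLC genes and for 8106 genes in all. The others, the sodium-glucose cotransporter Slc5a1 and the nucleoside transporter Slc28a3, had no usable value on any array.

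Gene expression was measured in laser-microdissected prostate stroma of male FVB mice that carry the CR2-TAg transgene, in which cryptidin-2 regulatory elements drive SV40 large T antigen in prostatic neuroendocrine cells. Stroma next to invasive cancer came from 6 mice aged 24 weeks, and stroma next to prostate intraepithelial neoplasia (PIN), the lesion that precedes invasion, came from 3 mice aged 10 weeks. All mice carried the transgene, no healthy prostate was included, and age and stage changed together, so that their contributions cannot be told apart. The array of a further PIN sample of the study was not analysed here. Each array compared 1 mouse, labeled with Cy5, with a Cy3-labeled pool of the PIN samples, and each value is the log2 ratio of that mouse to the pool, so a value of 1 is a doubling over the pool and a value of 0 is the level of the pool.

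Transporters work in groups. Facilitative carriers such as the Slc2a glucose transporters let their substrate run down its gradient, whereas coupled carriers use the sodium, proton or chloride gradient, and exchangers swap one solute for another. Heterodimeric amino acid exchangers need the heavy chain Slc3a2, and monocarboxylate carriers of the Slc16a family need the chaperones basigin (Bsg) or embigin (Emb) to reach the cell surface. Slc25a carriers sit mainly in the inner mitochondrial membrane, and Slc30a and Slc35a to Slc35e proteins serve mainly vesicles, the Golgi apparatus and the endoplasmic reticulum.

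Arrays held 17189 to 17206 values each. Over all clones, the log2 ratios had an SD of 0.69 to 0.81 on the invasive cancer arrays and of 0.54 to 0.57 on the PIN arrays. PIN replicate 4 stood apart from the other PIN arrays: its correlation with PIN replicates 2 and 3 over all clones was 0.18 and 0.19, against 0.67 between those 2 arrays. For SLC genes and their partners, the calls and the differences described in detail that rest on this array are therefore given with and without it. Marker calls are given with it only. The labelled tissue could not be checked by absolute levels, since ratios to a pool of stroma give no level. At a limma adjusted p under 0.15, 3.75% of all genes rose in invasive cancer stroma and 1.89% fell. Of tested markers, 5 of 11 fibroblast, 5 of 5 macrophage, 2 of 7 endothelial and 6 of 11 proliferation genes rose, and none of these fell. In other lists 2 of 4 smooth muscle, 1 of 4 skeletal muscle and 1 of 9 epithelial genes fell. There 3 of 9 adipocyte and 1 of 7 neuroendocrine genes rose. These counts are no independent check of the tissue. They include PIN replicate 4, on which the fibroblast genes Fn1 and Col5a1, counted as rising, read -1.50 and -0.95. On PIN replicates 2 and 3 Fn1 read -0.35 and 0.68, and Col5a1 0.58 and 0.81. The lists were chosen with earlier results known and hold genes that the study reported as induced, such as Col3a1 and Birc5.

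The share of solute carrier genes called between the stages was near that of all genes. Taking the study's false discovery rate of 0.15 as the threshold for the adjusted p, limma called 6 of 136 SLC genes, 4.41%, beside 5.64% of all 8106 genes. The genes that rose in invasive cancer stroma were 2, the vesicular monoamine transporter Slc18a1 and the melanosomal exchanger Slc24a5, where 3.75% of all genes rose. Those that fell were 4, the zinc transporter Slc30a2, the lactate transporter Slc16a1, the insulin-responsive glucose transporter Slc2a4 and the choline transporter-like Slc44a4, where 1.89% of all genes fell. The median difference, invasive minus PIN, was -0.01 on the log2 scale over the SLC genes and 0.02 over all genes, with 65 SLC genes above 0 and 71 below. With each array centred on its median, 1 SLC gene rose and 4 fell, since Slc24a5 then missed the threshold. The SLC differences ran from -1.68 to 0.94, and 4 SLC genes, or 2.94%, differed by at least 1 on the log2 scale in either direction, as did 4.98% of all genes. All values come from bulk stroma, in which fewer cells of a type and less RNA per cell cannot be told apart.

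**Figure D1:**
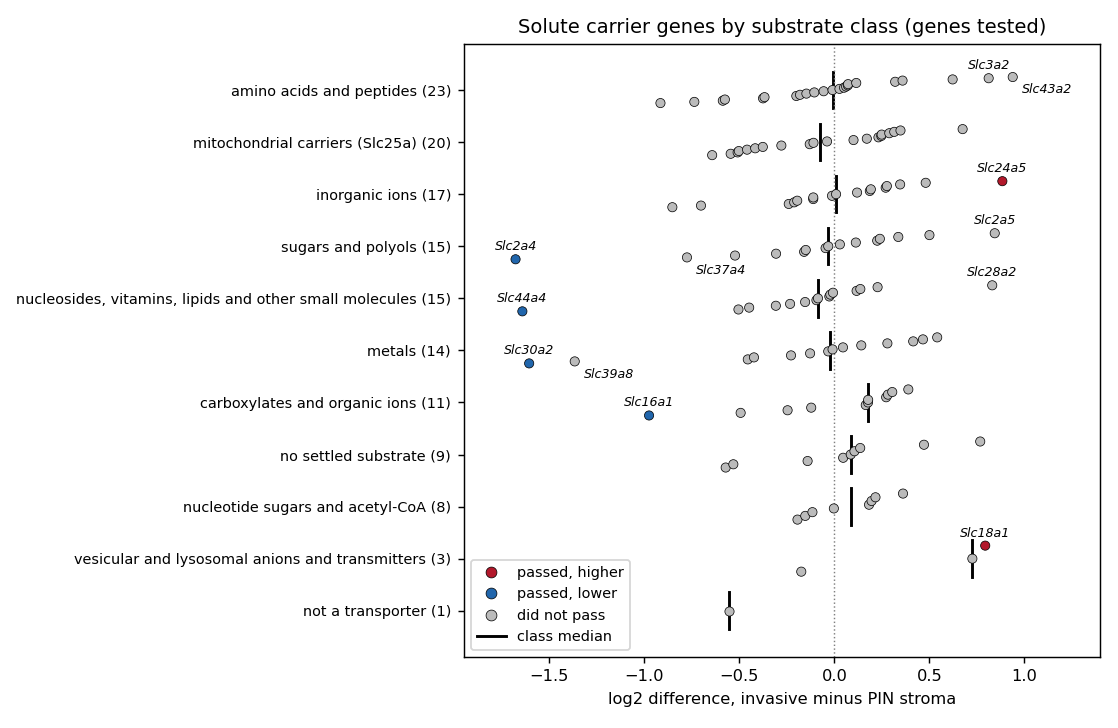
Log2 difference (invasive cancer minus PIN stroma, x axis) of each of the 136 tested SLC genes, grouped by substrate (number of genes in brackets), with a black bar at the median of each class. Red and blue points passed the test as higher or lower. The medians of classes with 8 or more genes lie between -0.09 and 0.18, and the points that passed lower reach from -0.97 to -1.68.

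Among sugar and polyol carriers, Slc2a4 was the member that moved. Slc2a4 encodes GLUT4, the glucose transporter that insulin brings to the surface of muscle and fat cells. Its log2 ratios on the 6 invasive cancer arrays ran from -2.88 to -1.12 with a median of -1.90, and those of PIN replicates 2, 3 and 4 were 0.05, -0.46 and -0.51. Every invasive cancer array was below every PIN array, with the lowest values in replicates 2, 5 and 6. The difference was -1.68 (SE 0.40), 3.20-fold lower in invasive cancer stroma, at a limma adjusted p of 0.062. Slc2a4 was the only gene of the set for which more than 1 clone passed alone: its clones differed by -1.94 and -1.42, at limma adjusted p values of 0.101 and 0.1. Its call was lost without PIN replicate 2 (adjusted p = 0.266) or PIN replicate 3 (adjusted p = 0.185), with differences of -1.50 and -1.75.

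Markers of cell types that use GLUT4 did not all follow it. Of the 10 listed smooth muscle markers 4 were tested, and 2 of them fell, Myh11 and Myl9. Smtn differed by -1.93 without passing. Cnn1 differed by 0.065 and read only -0.04 to 0.35 on the invasive cancer arrays. The median of the 4 lay between -3.96 and -0.39 on the invasive cancer arrays and between -0.60 and 0.43 on the PIN arrays. Invasive cancer replicates 2, 5 and 6, the lowest for Slc2a4, had smooth muscle medians of -3.87, -2.23 and -3.96, and replicates 1, 3 and 4 had -0.84, -0.39 and -1.87. The 4 tested of 22 skeletal muscle markers had medians of -0.46 to 0.27 in invasive cancer stroma and of -0.25 to 0.47 in PIN stroma, with a fall in Tnnt1 alone. The median of the adipocyte markers lay higher, at 0.39 to 1.90 in invasive cancer stroma and -0.05 to 0.23 in PIN stroma. Of the 9 tested, 3 rose (Fabp4, Lpl and Cd36). The others did not pass, with differences of 1.05 for Adipoq, 0.61 for Retn, 0.43 for Lipe, 0.18 for Lep, 0.10 for Pparg and -0.42 for Plin1. The part of these cell types in the Slc2a4 difference was not tested.

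**Figure D2:**
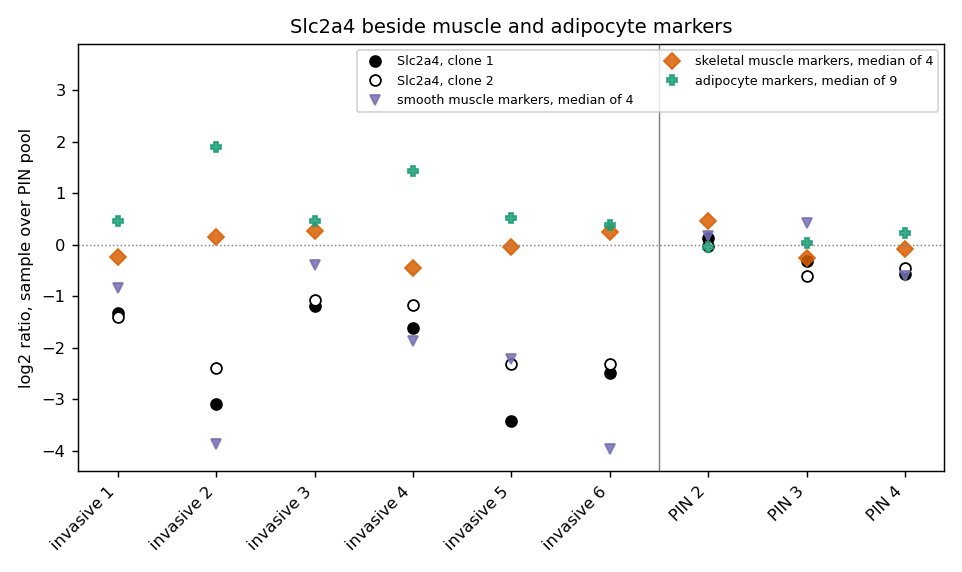
Log2 ratio over the PIN pool (y axis) on each of the 9 arrays for both Slc2a4 clones and for the median of smooth muscle, skeletal muscle and adipocyte markers. Both Slc2a4 clones lie below -1 on every invasive cancer array, while the adipocyte medians lie above 0 there and the smooth muscle medians range from -3.96 to -0.39.

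The other glucose carriers showed no call. Slc2a1 (GLUT1), the widespread basal glucose transporter, differed by 0.11 with a 95% interval of -0.49 to 0.72, and its 3 clones by 0.01 to 0.19. Slc2a3 (GLUT3), a transporter of high glucose affinity, differed by 0.24 with an interval of -0.31 to 0.79. Slc37a4, which carries glucose 6-phosphate into the endoplasmic reticulum, lay just outside the threshold: its invasive cancer arrays ran from -1.10 to -0.41 with a median of -0.89, and its PIN arrays read -0.53, -0.04 and 0.54, a difference of -0.78 (SE 0.25, limma adjusted p = 0.156). PIN replicate 4 was the highest of these, and without it the Slc37a4 difference was -0.50 (adjusted p = 0.364). The fructose transporter Slc2a5 read -0.21 to 1.63 in invasive cancer stroma and -0.93, -0.92 and 0.46 in PIN stroma, and differed by 0.84 (SE 0.40, adjusted p = 0.35). Without PIN replicate 4 the Slc2a5 difference was 1.31 and passed, at an adjusted p of 0.145. The 15 tested sugar and polyol genes had a median difference of -0.03.

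Among carriers of carboxylates and organic ions, Slc16a1 fell and 10 genes did not pass. Slc16a1 encodes MCT1, a proton-coupled transporter of lactate, pyruvate and ketone bodies. Its invasive cancer arrays ran from -1.32 to -0.64 with a median of -1.01, and its PIN arrays read -0.47, 0.15 and 0.26. The groups did not overlap, although invasive cancer replicate 4 and PIN replicate 2 came within 0.2 of each other. The difference was -0.97 (SE 0.23), 1.97-fold lower in invasive cancer stroma (limma adjusted p = 0.062). Neither of its 2 clones passed when tested alone, with differences of -0.75 and -1.20 at adjusted p values of 0.181 and 0.152. Its call was also lost without PIN replicate 3 (-0.89, adjusted p = 0.239) and, narrowly, without PIN replicate 4 (-0.83, adjusted p = 0.153).

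Related monocarboxylate transporters had differences of either sign and did not pass. Slc16a7 (MCT2) differed by -0.49 and Slc16a3 (MCT4), known as a lactate exporter of glycolytic cells, by 0.17 with an interval of -0.75 to 1.08. Slc16a13 had a small difference of 0.39 (SE 0.18, limma adjusted p = 0.331), with all invasive cancer arrays, -0.25 to 0.25, above the PIN arrays, -0.29, -0.31 and -0.36. The chaperone Bsg differed by 0.41 (SE 0.30, adjusted p = 0.589) and Emb by 0.00 with a wide interval of -1.48 to 1.48. Without PIN replicate 4, Emb differed by 1.26 and passed as higher in invasive cancer stroma (adjusted p = 0.101). The class of 11 genes had a median difference of 0.18.

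The stretch before the start of Slc16a1 is shown because it belongs to 1 of the 2 called genes for which RefSeq (GRCm38.p6) gives a promoter window that begins at the annotated gene start. It covers the 250 bases upstream, chr3:104638414-104638663 on the plus strand, and capitals mark a GC box (GGGCGG) and an E-box (CACGTG).
Slc16a1: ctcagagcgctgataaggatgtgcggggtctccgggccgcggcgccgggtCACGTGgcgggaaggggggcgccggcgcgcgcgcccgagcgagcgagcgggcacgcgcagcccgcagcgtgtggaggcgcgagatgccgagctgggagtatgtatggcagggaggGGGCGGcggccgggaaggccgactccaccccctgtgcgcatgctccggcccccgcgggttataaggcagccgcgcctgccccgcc
It had 76.4% G and C and 37 CpG dinucleotides, where the median over 6589 promoters of tested genes was 60% and 16. On either strand the GC box letters occur in 59.5% of all these promoters and in 67.6% of the 102 SLC promoters, and the E-box letters in 9% and 13.7%.

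Metal carriers gave the SLC gene with the smallest adjusted p. Slc30a2 encodes ZnT2, which moves zinc from the cytosol into vesicles and is known from secretory glands such as the mammary gland and pancreas. Its log2 ratios on the invasive cancer arrays ran from -2.35 to -0.98 with a median of -1.58, and the PIN arrays read -0.13, -0.66 and 0.73. No array of one group reached into the other, and the difference was -1.61 (SE 0.32), 3.04-fold lower in invasive cancer stroma (limma adjusted p = 0.044). It rested on 1 clone. Without PIN replicate 4, the highest PIN array, the difference was -1.23 (adjusted p = 0.105), and without PIN replicate 2 it was -1.66 but did not pass (adjusted p = 0.171).

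The zinc and manganese importer Slc39a8 (ZIP8) had a large difference that followed 1 array. Its invasive cancer arrays ran from -3.38 to -1.72, and the PIN arrays read -3.47, -2.91 and 1.76. PIN replicates 2 and 3 thus lay within or below the invasive cancer values while PIN replicate 4 lay far above all others. The difference was -1.37 (SE 0.89, limma adjusted p = 0.521), and without PIN replicate 4 it was 0.28 (adjusted p = 0.795). Slc39a8 was the 1 SLC gene whose PIN arrays spanned at least 3 on the log2 scale, a span seen in 0.567% of all genes. Slc30a3, a zinc transporter known from synaptic vesicles, differed by -0.46 without passing, and the class of 14 metal carriers had a median difference of -0.02.

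Inorganic ion carriers included a gene that rose. Slc24a5 encodes NCKX5, a potassium-dependent sodium-calcium exchanger known from melanosomes and pigmentation. Its invasive cancer arrays ran from -0.01 to 1.22 with a median of 0.73, and its PIN arrays read -0.31, -0.07 and -0.41. All invasive cancer arrays lay above all PIN arrays, but replicates 1 and 5, at -0.01 and 0.09, came close to PIN replicate 3. The difference was 0.88 (SE 0.28), 1.85-fold higher in invasive cancer stroma, and it passed by a small margin (limma adjusted p = 0.148). Slc24a5 rested on 1 clone, which did not pass when clones were tested alone (limma adjusted p = 0.225). The call held in 3 of the 9 fits that each left out 1 array, those without invasive cancer replicate 1, 3 or 5, and in the 6 others, without invasive cancer replicates 2, 4 or 6 or any PIN array, the adjusted p lay between 0.211 and 0.381.

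The sodium-calcium exchanger of excitable and contractile cells, Slc8a1 (NCX1), differed by -0.70 (SE 0.33, limma adjusted p = 0.345), with 3 clones at -0.85 to -0.41. Its PIN arrays read 0.23, 0.69 and -0.55, and without PIN replicate 4 the Slc8a1 difference was -1.04 (limma adjusted p = 0.175). The bicarbonate carrier Slc4a8 read -1.85 to -0.97 in invasive cancer stroma and -1.69, -1.46 and 1.20 in PIN stroma, with PIN replicate 4 far above the others. The Slc4a8 difference was -0.85 (SE 0.51, limma adjusted p = 0.479), and without PIN replicate 4 it was 0.07 (adjusted p = 0.931). The 17 genes of this class, which include bicarbonate, phosphate and cation-chloride carriers, had a median difference of 0.01.

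The upstream stretch of Slc24a5, the other called gene with such a window in RefSeq (GRCm38.p6), is shown for comparison with that of Slc16a1. It covers 250 bases, chr2:125067877-125068126 on the plus strand, and holds no capitals because none of the letters searched on either strand occur in it, those of the GC box (GGGCGG), the E-box (CACGTG), the CCAAT box (CCAAT) and the TATA box (TATAAA).
Slc24a5: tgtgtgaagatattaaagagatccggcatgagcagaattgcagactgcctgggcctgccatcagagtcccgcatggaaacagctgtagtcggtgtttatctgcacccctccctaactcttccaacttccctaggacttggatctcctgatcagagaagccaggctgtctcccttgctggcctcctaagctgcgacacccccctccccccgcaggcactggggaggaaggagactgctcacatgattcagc
It had 56% G and C and 5 CpG dinucleotides, against 76.4% and 37 before Slc16a1. CCAAT occurs in 36.4% and TATAAA in 7.12% of all the promoters, and in 32.4% and 3.92% of the SLC promoters. The windows of Slc30a2 and Slc44a4 belong to a start inside the annotated gene and are not printed.

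Vesicular carriers were few, and 1 of the 3 rose. Slc18a1 encodes VMAT1, which loads monoamines such as serotonin and catecholamines into the secretory vesicles of neuroendocrine cells. Its invasive cancer arrays ran from -0.20 to 0.93 with a median of 0.38, and its PIN arrays read -0.40, -0.37 and -0.50, tightly together and below all invasive cancer arrays. The difference was 0.79 (SE 0.24), 1.73-fold higher in invasive cancer stroma (limma adjusted p = 0.141). All PIN arrays analysed lay below the level of the PIN pool, and the invasive cancer mean was 0.37 above it. Slc18a1 rested on 1 clone, which did not pass when clones were tested alone (limma adjusted p = 0.221). The call held without invasive cancer replicate 3 or 4 and was lost, with an adjusted p of 0.164 to 0.357, without each of the 7 other arrays. Of 14 listed neuroendocrine tumor markers 7 were tested and 1 of them, Foxa2, rose. Their median lay between 0.40 and 2.12 on the invasive cancer arrays and between -0.10 and -0.01 on the PIN arrays. On invasive cancer replicates 1 to 6 the medians were 0.74, 1.82, 2.12, 1.58, 0.43 and 0.40. Slc18a1 read 0.37, 0.93, 0.04, -0.20, 0.68 and 0.40 there, lowest in replicates 3 and 4. The part of tumor cells in the Slc18a1 difference was not tested.

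Slc17a9, the vesicular nucleotide transporter that loads ATP, had the next smallest adjusted p of this class. Its invasive cancer arrays ran from -0.26 to 0.48 and its PIN arrays read -0.32, -0.34 and -1.17, so that the groups did not overlap, and the difference was 0.73 (SE 0.25, limma adjusted p = 0.187). Without PIN replicate 4, the lowest PIN array, it was 0.45 (adjusted p = 0.428). Slc18b1 differed by -0.17. The groups did not overlap in 9 SLC genes, beside 7.85% of all genes. Including Slc18a1 and Slc17a9, 4 of them had all invasive cancer arrays above all PIN arrays, a pattern in 4.86% of all genes. In the other 5 all lay below, among them the scaffold protein gene Slc9a3r1 (NHERF1), which carries an Slc symbol but encodes no transporter; this pattern was seen in 2.99% of all genes.

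Among carriers of nucleosides, vitamins, lipids and other small molecules, Slc44a4 fell and 14 did not pass. Slc44a4 encodes a choline transporter-like protein that takes up thiamine pyrophosphate in human colon cells. Its invasive cancer arrays ran from -2.60 to -1.40 with a median of -1.94, and its PIN arrays read -1.25, -0.87 and 1.22. The groups did not overlap, with PIN replicate 4 more than 2 above the other PIN arrays. The difference was -1.64 (SE 0.45), 3.12-fold lower in invasive cancer stroma (limma adjusted p = 0.109), from 1 clone. Without PIN replicate 4 it was -0.88 and did not pass (adjusted p = 0.192). Of the 8 other fits that left out 1 array, those without invasive cancer replicates 1 or 3 kept the call and 6, without invasive cancer replicates 2, 4, 5 or 6 or PIN replicates 2 or 3, lost it at an adjusted p of 0.158 to 0.187.

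Slc28a2, a sodium-coupled transporter of purine nucleosides, read 0.09 to 2.23 in invasive cancer stroma and 0.14, -0.04 and -0.07 in PIN stroma, and differed by 0.83 (SE 0.39, limma adjusted p = 0.345). Its highest value was that of invasive cancer replicate 2, and without that array the difference was 0.55. The class of 15 tested genes had a median difference of -0.09, with 4 above 0 and 11 below.

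**Figure D3:**
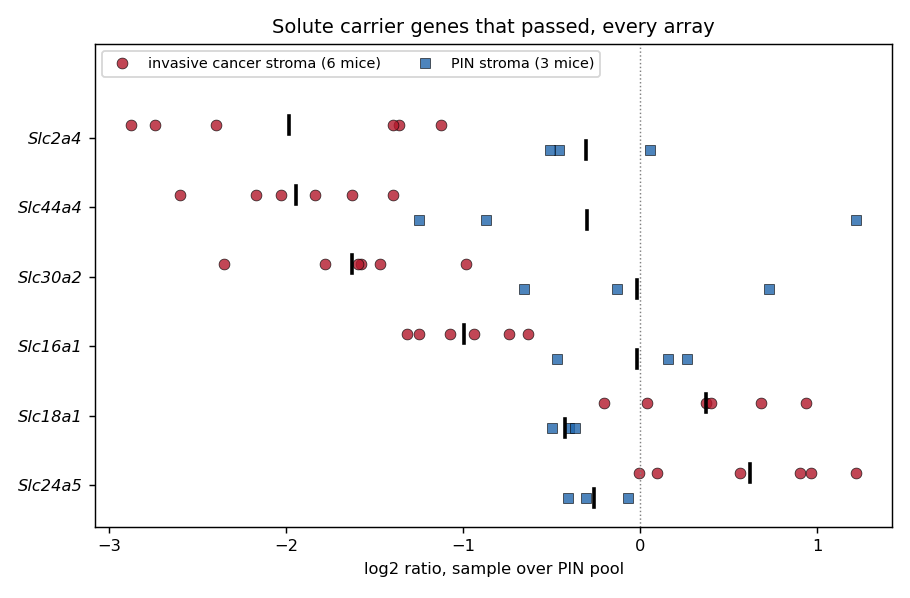
Log2 ratio over the PIN pool (x axis) of the 6 SLC genes that passed, for each of the 6 invasive cancer mice (red circles) and 3 PIN mice (blue squares), with black bars at group means. No group pair overlaps, and PIN replicate 4 of Slc44a4, at 1.22, stands far from the other PIN values of -1.25 and -0.87.

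No gene passed in the main limma fit among the 23 carriers of amino acids and peptides, the largest class. Of these, 5 had an unadjusted p under 0.05, as did 15% of all genes. A t-test with unequal variances (Welch) called none either, but other settings did. With array weights in limma Slc38a5, Slc6a6, Slc43a2 and Slc3a2 passed, where 20.1% of all genes were called. Without invasive cancer replicate 3, Slc6a6 and Slc38a5 passed (limma adjusted p = 0.036 and 0.060), beside 11.1% of all genes. Without replicate 6, Slc43a2 passed (limma adjusted p = 0.140), beside 3.31%. In the main fit the nearest to the threshold were both higher in invasive cancer stroma. Slc43a2 (LAT4), a facilitative carrier of branched-chain amino acids, read 0.08 to 1.35 in invasive cancer stroma and 0.34, -0.49 and -0.45 in PIN stroma, and differed by 0.94 (SE 0.31, limma adjusted p = 0.164). Slc3a2, the CD98 heavy chain, read -0.35 to 0.61 in invasive cancer stroma and -0.01, -1.19 and -0.74 in PIN stroma, and differed by 0.81 (SE 0.28, adjusted p = 0.187). Both genes had overlapping groups through PIN replicate 2.

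Other named carriers of the class did not pass in the main fit. Slc7a5 (LAT1), a light chain that pairs with Slc3a2, differed by 0.06 with a 95% interval of -0.62 to 0.75. The glutamine carrier Slc1a5 (ASCT2) differed by 0.03 with an interval of -0.62 to 0.68, and by -0.23 without PIN replicate 4, and Slc38a2, a sodium-coupled neutral amino acid carrier, by 0.32. The taurine carrier Slc6a6 differed by 0.62 (SE 0.28, limma adjusted p = 0.317) and, at the other end, the glutamine carrier Slc38a5 by -0.91 (SE 0.41, adjusted p = 0.325). Without PIN replicate 4 the Slc38a5 difference was -1.24 (limma adjusted p = 0.224). The class had a median difference of -0.01, with 11 genes above 0 and 12 below.

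The 20 tested Slc25a genes of the mitochondrial carrier family also gave no call in the main limma fit. Their differences ran from -0.64 to 0.67 with a median of -0.07, and 1 had an unadjusted p under 0.05, beside the same 15% of all genes. That gene was Slc25a30, at -0.64 (SE 0.29, limma adjusted p = 0.33). The ADP/ATP carriers had differences of opposite sign, with Slc25a4 (ANT1), the form of heart and skeletal muscle, at -0.46 (interval -1.05 to 0.13) and Slc25a5 (ANT2), the form of dividing cells, at 0.29 (interval -0.37 to 0.95). The difference between the 2 carriers was not tested.

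Other carriers that bring fuel and cofactors to the mitochondrion did not pass either. The carnitine-acylcarnitine carrier Slc25a20, needed for fatty acid oxidation, differed by -0.51 with both clones alike at -0.56 and -0.46, the citrate carrier Slc25a1 by 0.25 and the phosphate carrier Slc25a3 by -0.11. The oxoglutarate carrier Slc25a11 differed by -0.50, but by -0.14 without PIN replicate 4 (limma adjusted p = 0.865). Slc25a37 (mitoferrin 1), which brings iron to the mitochondrion, had the highest difference, 0.67 (SE 0.34, limma adjusted p = 0.38). With the peroxisomal family member Slc25a17 set aside, the 19 mitochondrial carriers had a median of -0.04.

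By membrane, the 75 SLC genes of the plasma membrane held 3 of the falls (Slc2a4, Slc16a1 and Slc44a4) and no rise, and the 33 genes of intracellular membranes other than mitochondria held both rises and the fall of Slc30a2. Genes that fell thus made up 4% and 3.03% of the membrane groups, beside 1.89% of all genes, and genes that rose 0% and 6.06%, beside 3.75%, and the groups were not compared by a test. Their median differences were -0.01 and 0.00. The class of nucleotide sugar and acetyl-CoA carriers of the Golgi apparatus and endoplasmic reticulum held 8 genes, which ran from -0.19 to 0.36. All were genes of the Slc35 family, and no acetyl-CoA carrier was among them. The 9 genes with no settled substrate gave no call; the nearest was Slc66a2, at 0.77 (SE 0.30, limma adjusted p = 0.237), which passed at 1.04 without PIN replicate 4 (adjusted p = 0.145).

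Many SLC genes shared the same high array. In 15 SLC genes, 11% of those tested, PIN replicate 4 was at least 1 on the log2 scale above both other PIN arrays, beside 4.48% of all genes. The reverse, at least 1 below both, was seen in 1 SLC gene, 0.735%, beside 1.79% of all genes. PIN replicate 3 stood above in 2 SLC genes and PIN replicate 2 in none. PIN replicate 4 was also the highest of all 9 arrays for 33 SLC genes, 24.3%, beside 15.7% of all genes.

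These 15 genes crossed the substrate classes. They held metal carriers (Slc39a8, Slc30a7 and the copper carrier Slc31a2), mitochondrial carriers (Slc25a10, Slc25a11 and Slc25a48), sugar carriers (Slc2a8 and Slc2a5), the peptide carrier Slc15a2, the bicarbonate carrier Slc4a8, Slc44a4, the Golgi sialic acid carrier Slc35a1, Slc35f1, Slc35f2 and the scaffold Slc9a3r1. In Slc35f2 the PIN arrays read -1.31, -0.91 and 1.67, and the invasive cancer arrays ran from -1.30 to -0.07. In 14 of the 15, all but Slc2a5, PIN replicate 4 was above every invasive cancer array as well. The differences of the 15 ran from -1.64 to 0.84 with this array and from -0.88 to 1.31 without it, when the sign turned in 6 of them and 1, Slc2a5, passed. Over the 136 SLC genes, the correlation of PIN replicate 4 with the other 8 arrays lay between -0.58 and -0.15, as a description of values that all share the same reference pool, to which each PIN sample contributed.

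Epithelial markers set PIN replicate 4 apart in the same way. Of 18 listed prostate epithelium markers 9 were tested, and in 8 of them PIN replicate 4 was at least 1 above both other PIN arrays. The exception, Cdh1, read 0.16, 0.15 and 0.25 on PIN replicates 2, 3 and 4. Their median was -1.42 to -0.54 on the invasive cancer arrays, and -1.27, -1.11 and 0.65 on PIN replicates 2, 3 and 4. One of the 9, Tspan8, passed as lower in invasive cancer stroma, and none as higher. Tspan8 read -2.89 to -1.88 in invasive cancer stroma and -1.51, -1.58 and 1.20 on PIN replicates 2, 3 and 4. Its call is given with PIN replicate 4 only. Other lists set PIN replicate 4 apart in the low direction. On PIN replicates 2, 3 and 4 the fibroblast medians were 0.26, 0.28 and -0.57, and the smooth muscle medians 0.17, 0.43 and -0.60. The part of epithelial or other cells in the SLC values of PIN replicate 4 was not tested.

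**Figure D4:**
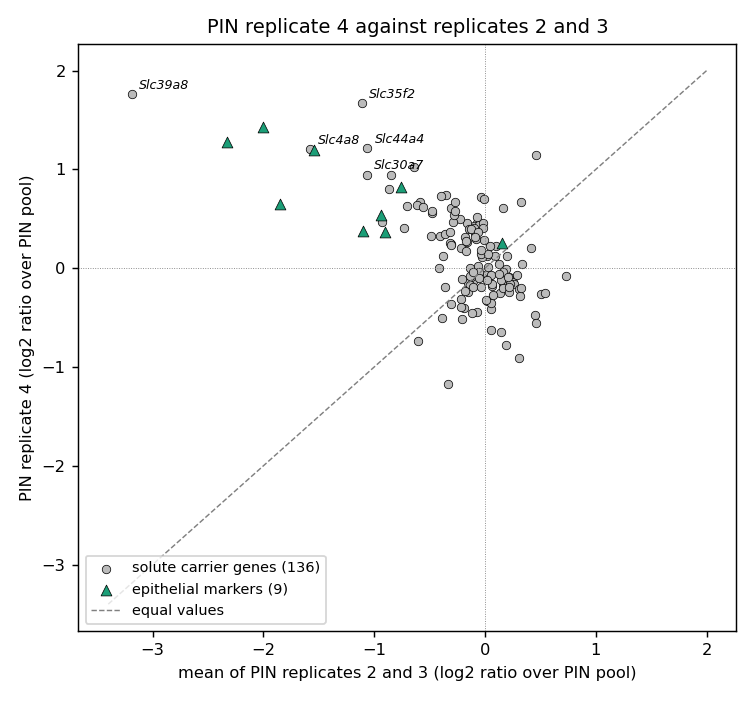
Log2 ratio over the PIN pool on PIN replicate 4 (y axis) against the mean of PIN replicates 2 and 3 (x axis), for the 136 tested SLC genes (grey circles) and the 9 tested epithelial markers (green triangles), with a dashed line at equal values. Slc39a8, at 1.76 on PIN replicate 4, and other SLC genes lie at upper left, as do most epithelial markers. Slc39a8 lies farther left and higher than every epithelial marker.

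Clones of the same gene gave a check on single spots. More than 1 clone was tested for 30 SLC genes. The gap between the highest and lowest clone difference had a median of 0.37 and was under 0.5 in 20 genes, but in 11 genes the clones lay on both sides of 0. The widest gap was in Slc15a2 (PEPT2), a proton-coupled carrier of small peptides. One of its clones read -2.71 to -1.44 in invasive cancer stroma and -1.10, -1.28 and 1.13 in PIN stroma and passed as lower (-1.70, limma adjusted p = 0.149), while the other differed by 0.22 (adjusted p = 0.878). Without PIN replicate 4 the group means of these clones differed by -0.92 and 0.28, values that were chosen after seeing the data and not tested. Of 175 clones tested alone 4 passed, all lower (both clones of Slc2a4 and those of Slc30a2 and Slc15a2), beside 2.16% of all clones.

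**Figure D5:**
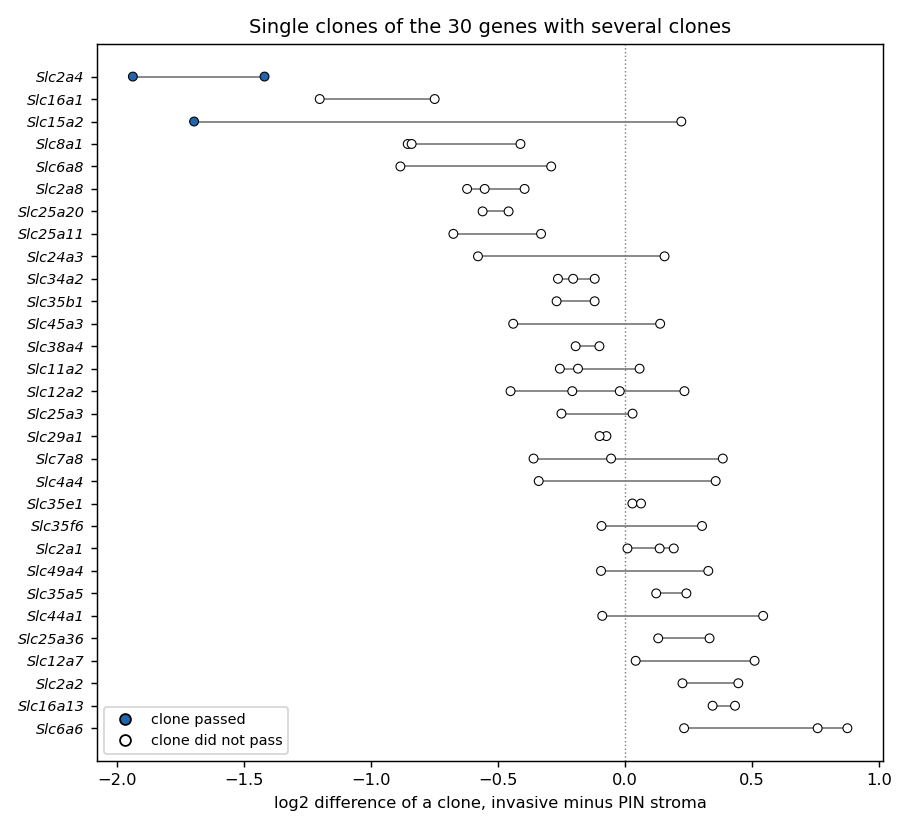
Log2 difference (invasive cancer minus PIN stroma, x axis) of single clones, joined by a line for each of the 30 SLC genes with several tested clones. Filled points passed when clones were tested alone. Slc2a4 has both clones passing, and the clones of Slc15a2 lie at -1.70 and 0.22.

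A further 8 clones carried an Slc symbol together with another gene's symbol and were kept out of the genes. None passed; the farthest from 0 was a clone shared by Slc44a2 and Atg4d, at 1.20 (limma adjusted p = 0.205), while a second clone of the same pair differed by 0.17.

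Partners and relatives outside the Slc names gave 1 call. Of 29 tested genes, which included Na,K-ATPase subunits, Slc16a chaperones, Slco organic anion carriers, porins, sideroflexins and Mfsd carriers, 1 rose and none fell, a share of 3.45% called beside 5.64% of all genes. In the same limma test 4 had an unadjusted p under 0.05, beside 15% of all genes. The gene that rose was Mtch1, a mitochondrial carrier homolog of the outer membrane. It read 0.47 to 1.04 in invasive cancer stroma and -0.03, -0.06 and 0.17 in PIN stroma, and differed by 0.83 (SE 0.19, limma adjusted p = 0.056). Its relative Mtch2 differed by -0.18. The prostaglandin transporter Slco2a1 read -3.68 to -2.76 in invasive cancer stroma and -3.18, -3.27 and 1.79 in PIN stroma, and Emb read -1.98 to -0.54 against -2.67, -2.41 and 1.23, both with PIN replicate 4 far above every other array. The Slco2a1 difference was -1.58 with that array and 0.09 without it (limma adjusted p = 0.925).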

How the data were processed

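Stroma was microdissected from frozen sections, in a wider band around the epithelium in invasive cancer than in PIN, and its RNA was linearly amplified before labeling and hybridization to spotted mouse cDNA clones. The authors deposited the log2 ratio of each mouse (Cy5) to the PIN pool (Cy3), after lowess normalization by print-tip group within the array and with no background subtracted. Dyes were not swapped. Without spot intensities, which were not used, weak spots could not be told from strong ones. The precision is limited by the number of arrays, 6 and 3.

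Of 17664 clones, 12563 had 1 symbol in the platform annotation, 412 had several and 4689 had none. Where a gene had several clones, their mean on each array was used. Genes with values on at least 4 invasive cancer and 2 PIN arrays were tested (invasive minus PIN, two-sided) with limma 3.58.1 (lmFit and eBayes) in R 4.3.3, with Benjamini-Hochberg adjustment over all 8106 genes. Tables were made with Python 3.11.15 (pandas 2.3.3, numpy 2.4.6) and figures with matplotlib 3.10.9. Each array is 1 mouse. Log ratios of 8087 genes on 6 against 3 arrays were also simulated. Of 100 genes changed by 1 on the log2 scale 64 were recovered, and of 100 changed by 2, 97 were recovered. Of the unchanged genes 32 passed, and 0 passed when none was changed. The simulated noise was independent, with the same SD of a gene in both groups and no shift shared within an array. The rates therefore need not hold for these arrays, where PIN replicate 4 stood apart.

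Substrate class and membrane were assigned by SLC family, with exceptions by symbol. Named genes were those that passed, at least 2 of smallest p in each class where it held that many, the 5 largest differences each way and Slc2a4; other genes are named for their role or for the pattern of PIN replicate 4, after their values were seen. The members and all lists were chosen with earlier results of these data known. Promoter windows came from RefSeq (entries for 4 of the 6 called genes). Alternatives were a Welch t-test on gene means, array weights, robust empirical Bayes, 3 scalings between arrays, other handling of clones and a stricter threshold. Others were a comparison with the pool alone, a replicate block and leaving out each array. The study's own t-test compared clones and included the further PIN sample.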

Additional observations from a re-analysis of the deposited data

Results flagged for a closer look

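In Slc2a5, the fructose transporter, invasive cancer replicate 6 had a log2 ratio of 1.63, far above the other 5 invasive cancer arrays, which ran from -0.21 to 0.44; its gap to the nearest array was large for the range of the group. The 6 invasive cancer values of 23 named genes were tested in this way, and chance alone singles out about 1 in 20 such groups.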

How the results depend on the processing

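Of the counts of SLC genes called, 2 higher and 4 lower, most moved with the processing. At an adjusted p under 0.05 the higher and lower counts were 0 and 1. By the Welch t-test they were 1 and 1 (Slc16a13 and Slc2a4), with 207 of all genes called. The study did not state whether its t-test had this form. Array weights gave 10 and 10 (1626 of all genes). Setting the invasive cancer arrays against the pool alone gave 19 and 28 (2595 of all genes). The higher count was 1 after median centring and after quantile normalization, where Slc24a5 missed the threshold, and 0 when each clone was tested alone. Leaving out 1 array gave 0 to 5 higher and 1 to 7 lower genes. The 5 and 7 came without invasive cancer replicate 3 (896 of all genes). Without PIN replicate 2, 3 or 4 the higher counts were 0, 0 and 2 and the lower counts 1, 1 and 2. The higher genes without PIN replicate 4 were Slc66a2 and Slc2a5, while Slc18a1 and Slc24a5 missed the threshold there. The median over SLC genes was -0.054 with the replicate block, and with 1 array left out it lay between -0.035 (without PIN replicate 2) and 0.069 (without PIN replicate 4). With 1 array left out, Slc39a8 lay between -2.33 without PIN replicate 2 and 0.28 without PIN replicate 4, and its lowest value over all 19 alternatives was -2.91, with the invasive cancer arrays set against the pool alone. The value of 0.28 was the 1 sign that turned among the 23 named genes. The cause of these changes was not tested.

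Replicate numbers did not pair the mice: same-numbered invasive cancer and PIN arrays had correlated deviations of -0.09, -0.10 and -0.02 for numbers 2, 3 and 4. With the replicate number as a block, 1 SLC gene was higher (Slc24a5) and 0 lower, and 90 of 8087 genes passed in all. Apart from the stricter threshold and single clones, Slc30a2 passed in 16 of 19 alternatives, Slc2a4 in 16, Slc16a1 in 15, Slc18a1 in 10, Slc24a5 in 9 and Slc44a4 in 8, and the direction of these 6 genes was the same in all 19. Arrays without their spot intensities leave the signal behind each ratio unknown.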
